A study of Mus musculus with 12 samples.

Results

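The regions described here were CpG-dense stretches of the mouse genome that lie far from any annotated promoter. CpG islands at such places are often called orphan islands, but the regions were not required to be islands. The autosomes, chromosomes 1 to 19 of mm10, were divided into fixed tiles of 1 kb. A tile was taken when it held at least 30 CpGs, lay at least 10 kb from the 5′ end of every RefSeq transcript, predicted transcripts included, and had at least 3 CpG cytosines with coverage of 10 or more reads in all 6 methylation libraries. Of 41509 tiles with 30 or more CpGs, 13012 met the distance rule and 2793 of these had the required sites, out of 71214 tiles of any kind with such sites. The rule used no methylation value and no CpG island call. The median member had 54.1% GC, and its CpG count was 0.532 of that expected from its C and G content. Members with exactly 30 CpGs (336 tiles) averaged 69.4% methylation, and 356 distal tiles just outside the rule, with 29 CpGs, averaged 70.7%. The 277 members 10 to 12 kb from a 5′ end averaged 54.2%, and 380 dense tiles 8 to 10 kb away averaged 54.7%.

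The cells were primary chondrocytes taken from C57BL/6J mice aged 5 to 6 days, from cartilage of the femoral head and the tibial plateaus. They were expanded in monolayer in DMEM/F12 with 10% FBS and then held as 3D pellets with ascorbic acid and ITS for 1 week (day 7) or 3 weeks (day 21), so monolayer expansion was common to both groups. ERRBS, an enhanced form of reduced representation bisulfite sequencing, read DNA methylation: in it, MspI fragments are bisulfite converted and sequenced. Poly A RNA-seq read RNA, and each assay had 3 libraries per week. Nothing in the labels tells if the libraries of a week came from different animals or cultures, so p-values measure only the spread between these libraries, which may be technical.

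CpG islands are stretches where CpGs escaped the loss that affects most of the mammalian genome, and those at promoters are usually free of methylation. Orphan islands lie away from annotated starts. Some of them mark alternative or unannotated promoters and developmental regulatory elements, others lie in exons, where codon use can hold CpGs, and others are young repeats such as the promoter regions of LINE-1 elements and retroviral long terminal repeats, which are normally methylated in somatic cells.

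Sequences of 8 members are shown to make these kinds visible. Each is the 300 bases of a tile with the most measured sites, from mm10, plus strand, in lower case with every CpG in capitals. The first pair stood almost free of methylation in every library.
Auts2 intron, unmethylated, chr5:131538126-131538425: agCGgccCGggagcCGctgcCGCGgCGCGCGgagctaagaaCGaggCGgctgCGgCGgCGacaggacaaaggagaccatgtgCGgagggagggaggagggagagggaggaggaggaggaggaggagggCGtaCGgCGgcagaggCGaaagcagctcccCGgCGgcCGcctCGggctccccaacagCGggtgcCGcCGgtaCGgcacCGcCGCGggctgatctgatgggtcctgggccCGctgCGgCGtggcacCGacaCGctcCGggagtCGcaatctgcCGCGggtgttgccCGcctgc
Between genes near Zfp978, unmethylated, chr4:147102032-147102331: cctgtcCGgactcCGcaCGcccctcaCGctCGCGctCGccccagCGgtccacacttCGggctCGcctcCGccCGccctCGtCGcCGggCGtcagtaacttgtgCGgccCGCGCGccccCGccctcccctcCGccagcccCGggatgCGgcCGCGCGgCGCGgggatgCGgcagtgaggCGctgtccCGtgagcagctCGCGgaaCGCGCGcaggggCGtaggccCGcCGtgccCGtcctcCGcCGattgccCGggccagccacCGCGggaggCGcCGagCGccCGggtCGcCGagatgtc
The Auts2 stretch held 39 CpGs and the stretch on chromosome 4 held 52. Across the 6 libraries the 33 measured sites of the Auts2 stretch averaged from 0.159% to 3.00%, and the 48 sites of the chromosome 4 stretch from 1.17% to 3.68%.

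The next 3 stretches came from tiles classed as intermediate by the level of the whole tile. A pair of them came from a run of adjacent tiles on chromosome 17 read at very high depth, and the third, chosen after its values had been seen, from a coding exon of the zinc finger gene Zfp316.
Chromosome 17 run, intermediate, chr17:39844140-39844439: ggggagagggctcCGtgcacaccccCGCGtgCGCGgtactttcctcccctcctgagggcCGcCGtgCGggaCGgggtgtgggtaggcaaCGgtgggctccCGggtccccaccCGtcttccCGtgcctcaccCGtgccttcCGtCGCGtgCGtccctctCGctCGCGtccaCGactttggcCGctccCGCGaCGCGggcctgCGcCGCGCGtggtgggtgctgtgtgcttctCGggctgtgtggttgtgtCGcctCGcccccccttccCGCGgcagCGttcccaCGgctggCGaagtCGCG
Chromosome 17 run, next tile, intermediate, chr17:39845694-39845993: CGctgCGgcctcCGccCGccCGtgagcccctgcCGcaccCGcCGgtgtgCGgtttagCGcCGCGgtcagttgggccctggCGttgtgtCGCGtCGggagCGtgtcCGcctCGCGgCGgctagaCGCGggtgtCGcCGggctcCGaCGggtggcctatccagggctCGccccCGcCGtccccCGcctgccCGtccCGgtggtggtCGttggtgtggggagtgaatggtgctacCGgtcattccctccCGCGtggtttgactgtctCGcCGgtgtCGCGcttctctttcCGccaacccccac
Zfp316 coding exon, intermediate, chr5:143253649-143253948: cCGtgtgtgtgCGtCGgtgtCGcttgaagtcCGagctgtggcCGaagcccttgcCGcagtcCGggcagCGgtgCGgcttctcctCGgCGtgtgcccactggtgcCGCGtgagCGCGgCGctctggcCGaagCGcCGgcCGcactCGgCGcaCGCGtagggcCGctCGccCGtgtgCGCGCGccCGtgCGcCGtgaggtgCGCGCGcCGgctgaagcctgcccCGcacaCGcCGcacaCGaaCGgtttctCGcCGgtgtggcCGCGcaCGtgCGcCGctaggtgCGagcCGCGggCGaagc
The chromosome 17 stretches averaged 15.6% to 19.6% and 26.2% to 30.8% across libraries. The first stretch alone thus lay below 20%, the lower limit of the class of its tile. The Zfp316 stretch, with 54 CpGs in 300 bases, averaged 27.5% to 32.7% in 5 libraries and 58.2% in Week 3 replicate 2.

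The last 3 stretches were methylated. Pard6b and Srsf4 were the coding exons with the most measured sites in that class, and the tandem repeat was chosen after its values had been seen.
Pard6b coding exon, methylated, chr2:168098453-168098752: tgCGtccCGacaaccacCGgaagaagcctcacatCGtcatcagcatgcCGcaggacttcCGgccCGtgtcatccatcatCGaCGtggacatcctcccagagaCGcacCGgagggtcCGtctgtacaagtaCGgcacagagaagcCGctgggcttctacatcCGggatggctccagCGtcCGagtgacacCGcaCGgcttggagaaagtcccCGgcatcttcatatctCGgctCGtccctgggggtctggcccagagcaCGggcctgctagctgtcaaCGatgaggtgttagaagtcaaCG
Srsf4 coding exon, methylated, chr4:131900700-131900999: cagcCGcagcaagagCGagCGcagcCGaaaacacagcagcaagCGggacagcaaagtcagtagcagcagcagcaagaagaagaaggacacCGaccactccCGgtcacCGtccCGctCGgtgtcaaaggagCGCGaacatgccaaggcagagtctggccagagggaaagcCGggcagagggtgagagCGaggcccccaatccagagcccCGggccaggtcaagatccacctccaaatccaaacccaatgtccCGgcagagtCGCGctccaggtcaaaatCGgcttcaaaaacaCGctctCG
LOC115489542 intron, tandem repeat, methylated, chr2:175053401-175053700: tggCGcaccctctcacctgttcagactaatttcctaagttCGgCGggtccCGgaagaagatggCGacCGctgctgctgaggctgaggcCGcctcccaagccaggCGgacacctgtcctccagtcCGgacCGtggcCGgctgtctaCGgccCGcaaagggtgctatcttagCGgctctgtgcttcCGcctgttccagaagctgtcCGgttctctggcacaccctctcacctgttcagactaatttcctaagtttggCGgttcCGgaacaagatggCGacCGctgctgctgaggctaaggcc
Their library means ran from 81.8% to 86.8%, from 87.5% to 95.5% and from 87.0% to 94.6%. Pard6b encodes a cell polarity adaptor and Srsf4 a splicing factor of the serine and arginine rich family.

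**Figure D1:**
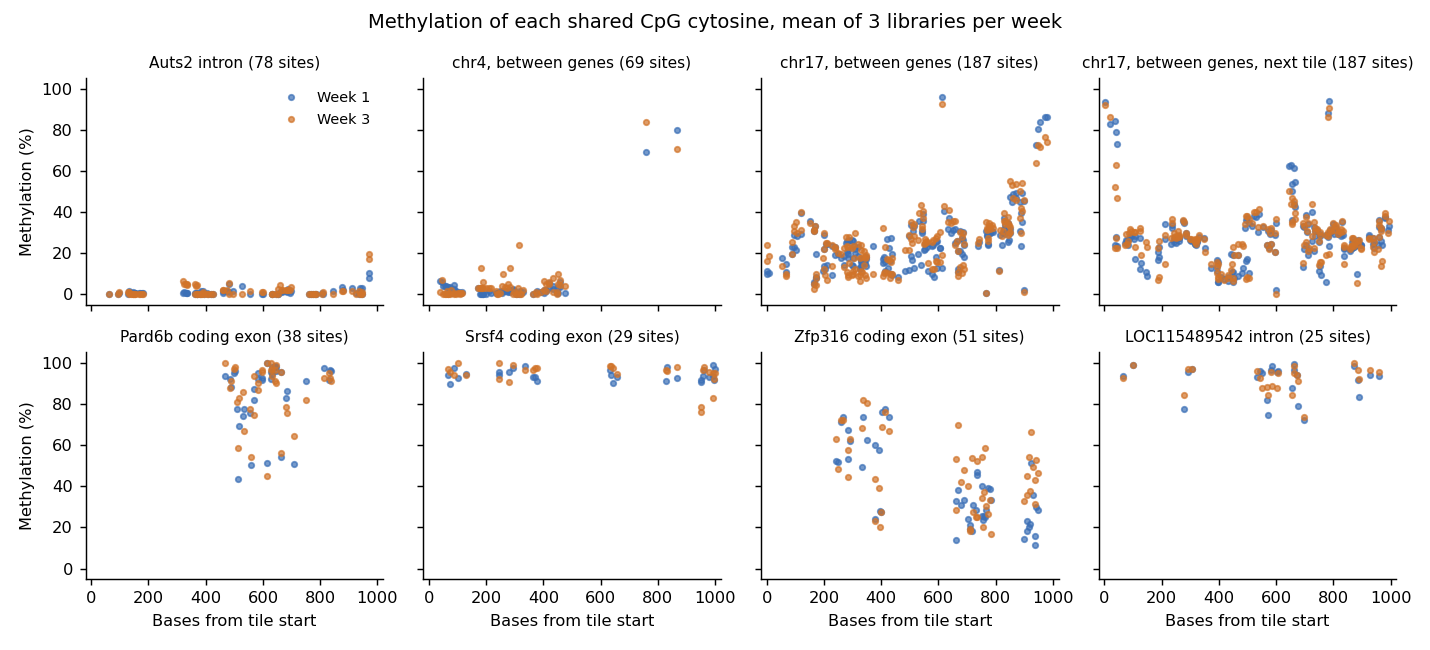
Methylation (%) of each shared CpG cytosine against its distance in bases from the start of its 1 kb tile, for the 8 tiles whose sequences are shown; blue points are the mean of 3 Week 1 libraries and orange points the mean of 3 Week 3 libraries. The Auts2 tile stays below 20%, the chromosome 4 tile lies mostly near 0 with a site that reaches 84.1%, the Srsf4 and tandem repeat tiles lie above 70%, and most sites of the chromosome 17 tiles lie below 50%.

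A tile's methylation level is the unweighted mean, over its shared sites, of the deposited percent of reads that showed C. Its class comes from the mean of the 6 libraries: unmethylated at 20% or less, methylated at 80% or more, intermediate between. Levels of the members were spread toward both ends. There were 626 unmethylated members (22.4%), 684 intermediate members (24.5%) and 1483 methylated members (53.1%). Levels of 0% to 10% were found in 503 tiles and of 90% to 100% in 907, against 64 tiles at 40% to 50%. Among 17071 tiles that also held at least 30 CpGs but lay within 1 kb of a 5′ end, 95.2% were unmethylated and 1.22% methylated. The sets were not matched beyond that minimum. The median was 59 CpGs in those tiles and 36 in members, and repeats covered at least 50% of bases in 0.246% and 34.9%. Their difference in level is thus not one of position alone. Members averaged 59.3 points above those tiles (higher in 6 of 6 libraries, exact two-sided sign-flip test, p = 0.03125, the smallest that 6 libraries can give). With a minimum of 40 CpGs in both sets the difference was 49.8 points.

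By position, 802 members overlapped a coding exon, 52 another exon, 515 lay in introns and 1424 lay between genes, 115 of the last overlapping a pseudogene. The mean level was 69.5% in coding exons, 40.3% in other exons, 61.5% in introns and 61.3% between genes. Inside genes as a whole the level was 4.06 points above that between genes, with a range of 3.86 to 4.50 over libraries. Coding exons held the lowest share of unmethylated members, 116 of 802 (14.5%), and other exons the highest, 24 of 52 (46.2%).

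The reference genome marks repeats in lower case, and 974 members (34.9%) were repeat-masked over at least 50% of their bases. Among all 13012 tiles that met the CpG and distance rules the share was 65.6%, so such tiles more often lacked the required sites. Class shares and means given here therefore describe the measured tiles only. The 974 masked members averaged 87.2%, the other 1819 averaged 50.5%, and the difference was 36.7 points (36.1 to 37.1 over the 6 libraries). Of the 974 masked members, 808 (83.0%) were methylated, 164 intermediate and 2 unmethylated. Between genes, masked members averaged 87.0% and the others 33.5%, a difference of 53.5 points (53.1 to 53.7), and 363 of those 683 others (53.2%) were unmethylated. In introns the corresponding means were 87.9% and 40.6%. Coding exons held only 2 masked members, and their 800 others averaged 69.4%, which was 28.9 points above introns and 35.9 points above the intergenic tiles of the same kind (lowest library difference 28.3 and 35.5).

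**Figure D2:**
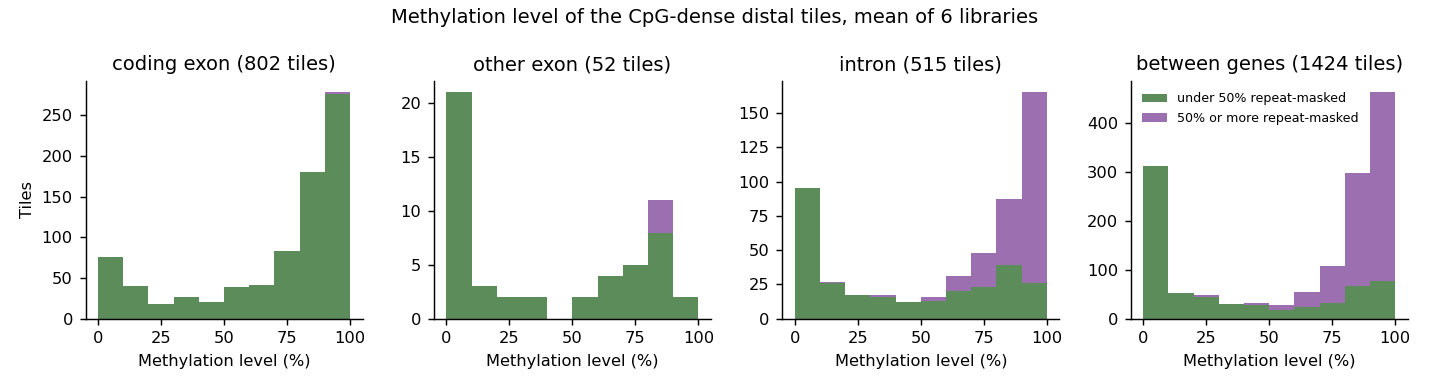
Number of member tiles in each 10-point bin of methylation level (mean of 6 libraries), in 4 panels by position, with tiles under 50% repeat-masked in green and tiles at 50% or more in purple; the vertical scales differ. Between genes the green tiles are mostly at the low end and the purple tiles at the high end, while coding exons are high with almost no purple.

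The contrast did not extend to single sites within a tile. In 463 members with both masked and unmasked sites, masked sites were higher in 221, and the mean difference was 0.418 points (from -0.104 to 0.853 over libraries).

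CpG number followed the level among tiles that were not mostly repeats. With 30 to 39 CpGs such members averaged 59.9% (1159 tiles), with 40 to 59 CpGs 41.7% (468 tiles), with 60 to 79 CpGs 17.4% (113 tiles), and with 80 or more 13.1% (79 tiles). Mostly masked members showed no such gradient, at 87.2% with 30 to 39 CpGs (632 tiles), 87.2% with 40 to 59 (309 tiles) and 87.5% with 60 to 79 (33 tiles). These are descriptions across tiles, which are not replicates.

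**Figure D3:**
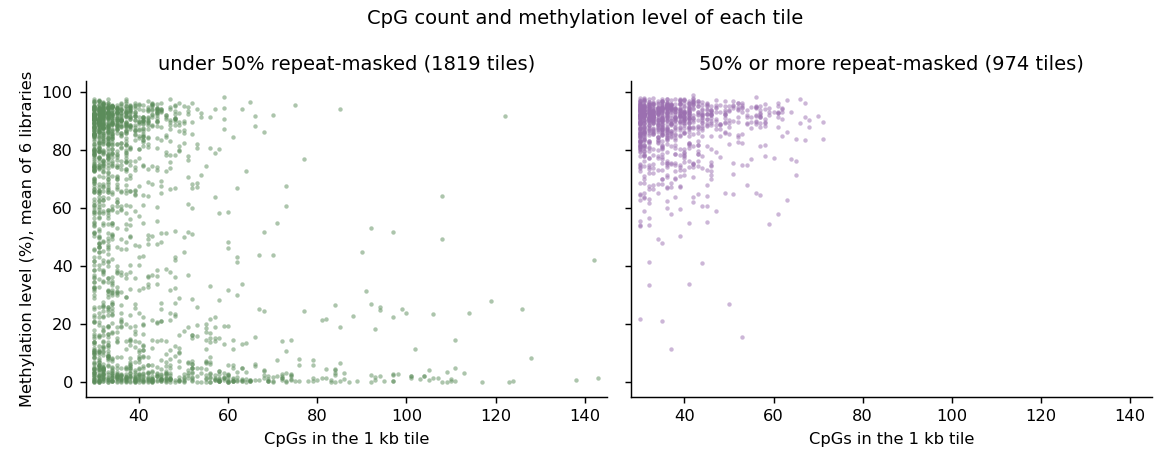
Methylation level (%, mean of 6 libraries) against the number of CpGs in the 1 kb tile; each point is a member, under 50% repeat-masked on the left (1819 tiles) and 50% or more on the right (974 tiles). On the left the tiles with many CpGs sit mostly near 0, and on the right nearly all tiles sit above 60%.

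Much of the repeated sequence was held in common. A word of 24 bases was counted as shared when it occurred, on either strand, in at least 10 members. In 798 members at least 20% of words were shared, and 655 of these were methylated, 141 intermediate and 2 unmethylated. Below are the most widespread shared word with a CpG, and the next 2 that had fewer than 10% of their members in common with those before, with CpGs in capitals. The annotation used here gives repeats no family names, so none is assigned.
Word 1: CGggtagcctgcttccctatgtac
Word 2: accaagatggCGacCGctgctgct
Word 3: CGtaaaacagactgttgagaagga
The first occurred in 167 members, 147 of them methylated and 0 unmethylated, with a median level of 90.7%. The second occurred in 151 members, of which 112 were methylated and 1 was unmethylated. The third occurred in 134 members, 116 of them methylated, and none of these was below 62.1%. On chromosomes 1 to 19 the words had 6043, 6198 and 1400 copies, of which the members hold a small part.

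Tandem repeats formed part of this group. In 365 members at least 30% of 12-base words recurred within the tile, and these averaged 85.7%. Comparing each such tile with itself at shifts of 10 to 400 bases, 300 matched best at 1 of 6 shifts between 201 and 214 bases, most often at 208 bases (104 tiles) and 212 bases (79 tiles). The LOC115489542 tile printed above matched best at 212 bases, where 72.8% of bases were identical. A tile between genes on chromosome 3, chr3:66670001-66671000, was masked throughout, matched best at 206 bases and held 71 CpGs, and its level was 89.6% over 5 sites.

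The median unmethylated member held 42 CpGs and 10 measured sites, against 35 CpGs and 5 sites for methylated members. Of 626, 163 (26%) lay within 1 kb of a transcript start in GENCODE M21, an annotation the rule did not use, compared with 178 of 1483 methylated members (12%). These classes also differed in repeats: 2 of the unmethylated and 808 of the methylated members (54.5%) were mostly masked. Members with such a start averaged 16.5 points less methylation than the rest (16.1 to 16.8 over libraries, all lower). Such starts were rare in mostly masked members, 26 of 974 (2.67%), against 427 of the other 1819 (23.5%). The 16.5 points were not adjusted for masking, so they cannot be credited to the starts. Non-member tiles next to an unmethylated member averaged 30.2% (154 tiles), and those 3 tiles away 51.1% (77 tiles).

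The unmethylated member with the most measured sites, 78, was the Auts2 intron tile chr5:131538001-131539000, which held 106 CpGs 123 kb from the nearest RefSeq 5′ end and overlapped a GENCODE start. Auts2 encodes a regulator of neuronal development. Its level was 1.70%, 1.32% and 0.441% in the 3 Week 1 libraries and 1.70%, 2.175% and 1.27% at Week 3. A Rims1 tile with 76 coding bases, chr1:22533001-22534000, held 107 CpGs and averaged 1.58% over 61 sites; Rims1 encodes a protein of the synaptic active zone. A coding tile of Otud7a, a deubiquitinase gene, chr7:63758001-63759000, held the most CpGs of any member, 143, and averaged 1.63% over 43 sites. The tile chr15:68362001-68363000, between RefSeq genes and 20.7 kb from Mir30d, averaged 0.391% over 63 sites. It lay 176 bases from a GENCODE start and overlapped the GENCODE lincRNA gene Gm20732. The tile near Zfp978 whose sequence is shown, chr4:147102001-147103000, was also placed between genes by RefSeq. It overlapped a GENCODE start, the lincRNA gene C230088H06Rik and the pseudogene Gm13142.

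Methylated members in coding exons included whole stretches of large genes. Plec, which encodes the cytoskeletal linker plectin, held 8 members, all methylated at 90.8% to 98.3%, and 6 of them were adjacent. Spen, a transcriptional corepressor gene, held 8 members at 50.5% to 96.9%, of which 7 were adjacent, the longest run. Shroom3, which encodes an actin regulator, held chr5:92942001-92943000, the methylated member with the most CpGs, 122. Its level was 93.2%, 93.2% and 95.7% at Week 1 and 89.4%, 85.8% and 93.1% at Week 3. F2r, the thrombin receptor gene, held chr13:95604001-95605000, at 94.1% over 24 sites.

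Adjacent members mostly shared a class. The 2793 members formed 2611 runs, of which 2460 were single tiles. Of 182 adjacent pairs, 146 were in 1 class and 1 joined an unmethylated to a methylated tile. Of 1038 genes that overlapped a member, 236 overlapped 2 or more and 29 held both an unmethylated and a methylated member. Ahdc1 and Gse1 each held 6 members, 2 in every class, ranging from 0.412% to 92.9% and from 4.84% to 94.3%.

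Intermediate levels came in more than one form. Of 5944 sites in intermediate members, 16.1% were at 20% or less, 62.0% lay between 20% and 80%, and 21.9% were at 80% or more, whereas 95.5% of sites in unmethylated members and 91.3% in methylated members shared their tile's class. In 117 of the 684 intermediate members every site lay between 20% and 80%, and 162 held both a site at 20% or less and a site at 80% or more. Cmip, which encodes a signalling adaptor, held an example of the second form in an intron, chr8:117278001-117279000, where 3 sites averaged 7.15%, 94.1% and 95.7%. The intergenic tile chr12:19704001-19705000, chosen after its values had been seen, averaged 60.8% over 24 sites that ran from 25.6% to 96.1%, and its level was between 57.9% and 62.9% in all 6 libraries.

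A set of 15 members had at least 10 times the coverage of the median tile. The 6 adjacent tiles of chr17:39843001-39849000 had 43.3 to 75.4 times the median coverage, 792 sites and tile levels of 21.4% to 28.1%. GENCODE places an rRNA gene, CT010467.1, in 3 of the 6 tiles, beside the non-coding genes Gm26917, Gm42418 and AY036118. The run averaged 22.7%, 24.9% and 23.4% in the 3 Week 1 libraries and 23.0%, 26.8% and 24.7% at Week 3. The weeks overlapped, and the difference was 1.14 points (exact two-sided permutation test, p = 0.5). Of the other 9 such tiles, 0 shared 10% or more of their 24-base words with that run. The deepest was an intronic tile of Gm36876, chr11:109011001-109012000, with 93.6 times the median coverage and a level of 33.5%. Whether reads from other copies of these sequences mapped to the tiles was not tested.

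Among the libraries, Week 3 replicate 2 stood apart. In 142 of 684 intermediate members (20.8%) its level lay over 15 points from the mean of the other 5 libraries, 73 times above and 69 times below. The next highest count was 52 (7.60%), in Week 1 replicate 3, whose median coverage in these tiles was lower, 18.4 reads against 23.0. The other 4 libraries had 6 to 30 such tiles. In methylated members the counts were 80 for Week 3 replicate 2 and at most 21 for another library. The reason was not tested, and the week differences of all members and of coding exons are also given without this library. In the coding exon of Sobp, chr10:43022001-43023000, for example, the level was 36.2%, 34.7% and 32.0% at Week 1, and 46.8%, 67.1% and 36.6% at Week 3.

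**Figure D4:**
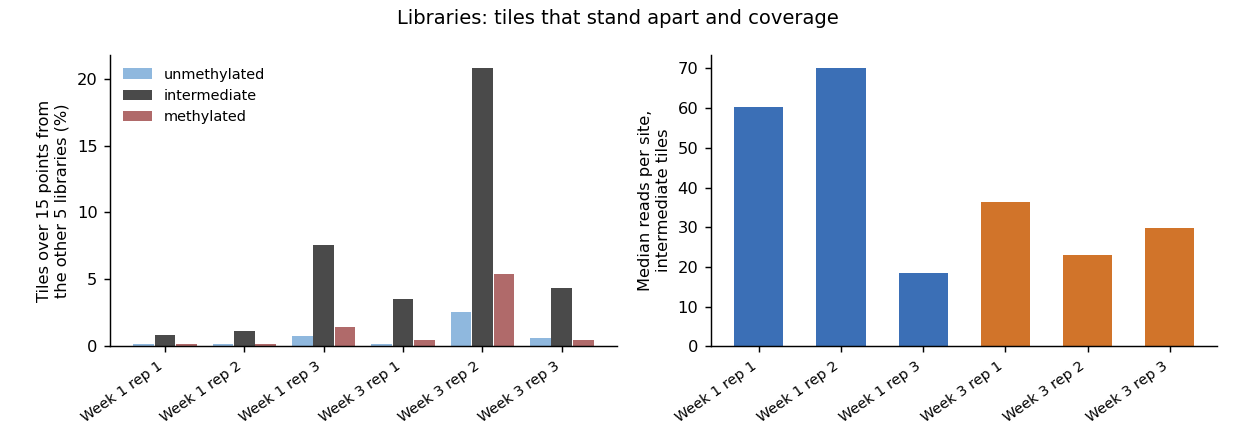
Left: percent of member tiles in each class whose level in a library differed by over 15 points from the mean of the other 5 libraries. Right: median reads per site in the intermediate tiles. Week 3 replicate 2 has the highest bars on the left, 20.8% for intermediate tiles, although Week 1 replicate 3 has fewer reads on the right.

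The comparison of Week 3 with Week 1 asked whether these levels moved during pellet culture. The mean over all members was 63.3%, 63.6% and 63.4% at Week 1 and 63.0%, 63.5% and 63.1% at Week 3. Weekly means were 63.4% ± 0.141 and 63.2% ± 0.247 (SD, n = 3), and the weeks overlapped; the difference was -0.200 points (exact two-sided permutation test, p = 0.3, where 0.1 is the smallest possible). Leaving out 1 library moved it from -0.0977 (without Week 3 replicate 1; -0.128 without Week 1 replicate 2) to -0.337 (without Week 3 replicate 2), and with 40 or more CpGs it was -0.0547. By class, the differences were -0.0527 points for unmethylated (p = 0.7), -0.269 for intermediate (p = 0.3) and -0.230 for methylated members (p = 0.4) by the same exact permutation test, all with overlapping weeks. For methylated members the difference was -0.436 without Week 3 replicate 2, and the weeks then no longer overlapped (exact permutation p = 0.1), -0.116 without Week 3 replicate 1 and -0.138 without Week 3 replicate 3. For intermediate members it ran from -0.119 (without Week 1 replicate 2) to -0.432 (without Week 1 replicate 1, exact permutation p = 0.1), and was -0.161 without Week 3 replicate 1. Coding exons differed by 0.144 points (exact permutation p = 0.9), a value that became -0.188 without Week 3 replicate 2, and introns by -0.390 points (exact permutation p = 0.3), with -0.173 without Week 3 replicate 1 and -0.523 without Week 3 replicate 2.

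Members between genes did not overlap between weeks. Their means were 61.3%, 61.7% and 61.4% at Week 1 and 61.0%, 61.3% and 61.2% at Week 3, a difference of -0.306 points (exact permutation p = 0.1, the smallest possible). With tiles of 40 or more CpGs alone the difference was -0.0175 points, and with 5′ ends of curated transcripts alone, a choice made after seeing the data, it was -0.221 (exact permutation p = 1 and 0.3). Mostly masked members, a grouping chosen after values had been seen, were at 87.4%, 87.6% and 87.4% at Week 1 and 86.8%, 87.0% and 87.1% at Week 3, again without overlap (difference -0.519 points, exact permutation p = 0.1, and -0.245 with 40 or more CpGs). Of these 974 members 741 lay between genes, so the groups share tiles. Those 741 differed by -0.440 points (exact permutation p = 0.1). The other 683 members between genes differed by -0.161 points, and their weeks overlapped (exact permutation p = 0.7). CpG-poor distal tiles, those with 10 or fewer CpGs at the same distance from 5′ ends, averaged 74.1% ± 0.269 at Week 1 and 73.1% ± 0.0608 at Week 3 (SD, n = 3). The members' difference lay 0.768 points above theirs (exact permutation p = 0.1). At CpG-dense 5′ ends the means were 4.00% and 4.11%, and the members' difference relative to theirs was -0.311 points (exact permutation p = 0.1). That value was -0.169 with 40 or more CpGs (exact permutation p = 0.3) and -0.220 with at least 5 sites (p = 0.2), and at coverage 20 the exact permutation p was 0.3. The members' difference from CpG-poor tiles was 0.513 points with at least 5 sites (exact permutation p = 0.2). The exact permutation test used for these means cannot go below 0.1, so its misses do not show that the weeks were alike.

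**Figure D5:**
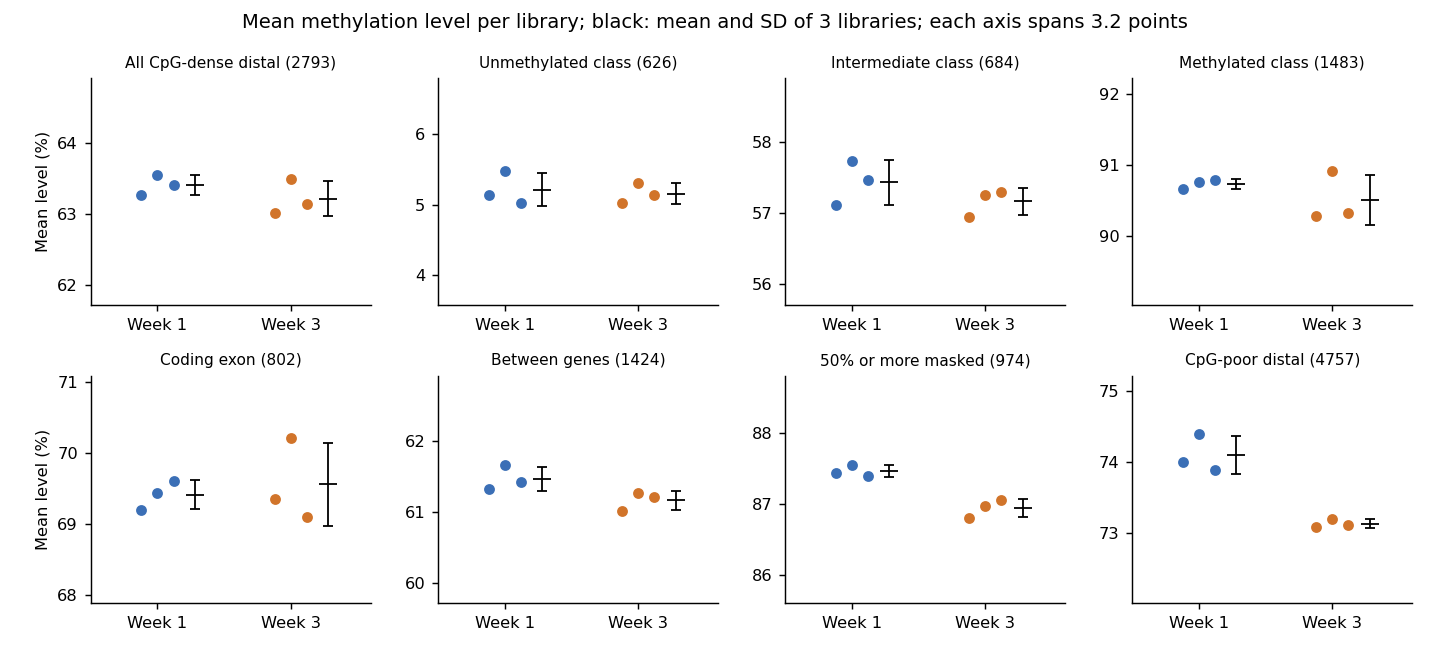
Mean methylation level (%) in each library, Week 1 in blue and Week 3 in orange, for members as a whole, by class, in coding exons, between genes and with 50% or more repeat-masked bases, and for CpG-poor distal tiles; black marks are the mean and SD of 3 libraries, numbers in brackets are tiles, and each axis spans 3.2 points without starting at 0. The weeks overlap in the top row and in coding exons, and separate in the other 3 panels, most widely in CpG-poor distal tiles.

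Tile by tile, limma called 0 of 2793 members at an adjusted p under 0.05, and 0% of all 71214 tiles (smallest adjusted p of a member 0.889). At an unadjusted p under 0.05 it listed 64 members (2.29%), 38 lower and 26 higher at Week 3, against 4.04% of all tiles. The alternative edgeR fit on pooled reads called 0 members and listed 60 at an unadjusted p under 0.05. The absence of calls does not show that members were unchanged: in simulated tiles near the middle of the scale, the limma fit called none that were moved by 20 points and most that were moved by 30. Only tiles with many reads were moved, and the noise between libraries was a fixed setting. These sizes therefore do not carry over to members with few reads or near either end of the scale. The largest differences of members were -27.9 and 19.3 points. All Week 3 libraries lay below all Week 1 libraries in 141 members (5.05%, against 6.45% of all tiles) and above them in 110 (3.94%, against 3.9%). A difference of over 10 points was seen in 100 members (3.58%, against 6.22% of all tiles), and 76 of these had only 3 to 5 sites. Class was the same at both weeks for 2624 members (93.9%), and 0 went between unmethylated and methylated.

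The member with the smallest p was an exonic tile of the predicted gene Gm46873, chr4:139851001-139852000, with 3 sites at 8.43%, 2.78% and 4.44% at Week 1 and 0% in all 3 Week 3 libraries (limma adjusted p = 0.889). An intronic tile of Gm31432, chr9:46443001-46444000, went the other way over 6 sites, from 0.232%, 0.641% and 0% to 4.07%, 3.65% and 7.25% (limma adjusted p = 0.889). The other 3 with the smallest p were also unmethylated tiles, and their differences were -9.05, -1.84 and 6.13 points. The first of these, in an intron of Gm48957 over 3 sites, rested largely on Week 1 replicate 3, with 4.81%, 2.76% and 19.6% at Week 1 and 0% in each Week 3 library. Among members with at least 10 sites the 3 with the largest differences were the Sobp exon given above, chr8:121294001-121295000 and the Sim2 exon. In the last, chr16:94125001-94126000, in a gene for a developmental transcription factor, the level was 24.3%, 26.4% and 24.7% at Week 1 and 33.1%, 45% and 36.4% at Week 3 over 29 sites. Its weeks did not overlap, and its adjusted p was 0.889 (limma).

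Of 35 genes listed for cartilage and hypertrophy, 4 (11.4%) held a member each. Of all 23575 genes in the RNA table, 911 (3.86%) held a member, and the list was chosen with earlier results known. Col2a1, the main collagen of cartilage, had a coding tile, chr15:97977001-97978000, at 82.0%, 84.1% and 85.7% at Week 1 and 79.7%, 79.7% and 87.5% at Week 3. Sox5, a transcription factor gene of the chondrocyte program, had a coding tile at 93.0%, and Trps1, a repressor gene of the growth plate, an intronic tile at 2.55%. Runx3, a transcription factor gene of hypertrophy, had an intermediate coding tile, chr4:135175001-135176000, with 23.2%, 25.05% and 36.1% at Week 1 and 24.2%, 10.5% and 24.7% at Week 3. In Col2a1 and Runx3 the weeks overlapped. In Trps1 all Week 3 libraries lay below all Week 1 libraries, with 3.33%, 3.41% and 3.53% at Week 1 and 1.91%, 0.146% and 2.97% at Week 3. In Sox5 they lay above, with 91.2%, 89.8% and 90.8% at Week 1 and 93.6%, 100% and 92.4% at Week 3. None of the 4 was called (limma adjusted p = 0.889 for Trps1 and for Sox5).

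Of 39 limb and skeletal transcription factor genes, 5 (12.8%) held 7 members: 2 unmethylated, in Prrx2 (0.716%) and Lmx1b (17.4%), 2 intermediate and 3 methylated. Of 39 Hox genes only Hoxd3 held members, at 12.4% over 28 sites and 41.9% over 8 sites, both in introns. Of 42 imprinted genes H13 and Zim1 held 1 each, at 12.5% and 88.5%, and of 13 DNA methylation genes Tet3, which encodes a methylcytosine dioxygenase, held 1 at 92.0%. The clustered protocadherin genes held 0. Of 413 zinc finger genes of the Zfp and Zscan series, 29 (7.02%) held 52 members, 31 of them in coding exons, with a mean of 66.8%. In the Zfp316 exon the whole tile was at 36.1%, 38.8% and 41.2% at Week 1 and 42.9%, 56.3% and 37.6% at Week 3. Zfp697 held an unmethylated exon tile at 2.14% next to one at 19%.

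The RNA of the pellets checked the label. The summed level of 10 chondrocyte markers was 18624 to 34487 counts scaled to library size (CPM) at Week 1 and 35740 to 39119 at Week 3. Hypertrophic markers summed to 526 to 558 CPM at Week 1 and 4627 to 7887 at Week 3. Endothelial, skeletal muscle and erythroid markers reached at most 1.63 CPM, with the erythroid gene Hbb-bs at 0, macrophage and leukocyte markers reached 71.6 and adipocyte markers 140 CPM. In bulk samples, fewer cells of a type and less RNA per cell cannot be told apart. Summed over genes, with only the transcript of highest total kept for each gene, the libraries held 14361717 to 19774665 counts.

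RNA of the genes that hold members was compared between weeks as a separate readout. Of 1038 host genes, 911 were in the RNA table and 685 had enough counts to test. Of the 685, 195 rose (28.5%, against 19.7% of all genes tested) and 98 fell (14.3%, against 17.8%) by edgeR's quasi-likelihood test at an adjusted p under 0.05. Hosts of unmethylated members had 29 rises and 25 falls among 119 tested, hosts of intermediate members 69 and 25 among 228, and hosts of methylated members 131 and 58 among 428. The median log2 change was 0.02, 0.10 and 0.09 in these groups and -0.01 over all genes tested.

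The rising host with the smallest adjusted p was Camk2b, a calcium and calmodulin dependent kinase gene, with 11.2, 9.11 and 9.25 CPM at Week 1 and 34.7, 36.2 and 30.3 CPM at Week 3 (log2 change 1.77 ± 0.11 SE, edgeR adjusted p = 3.45e-06). Camk2b held 5 members, 4 intermediate and 1 methylated, from 48.2% to 94.6%. In one of its intronic tiles, chr11:6007001-6008000, Week 3 replicate 2 stood at 71.4% and the other 5 libraries between 40.1% and 50.1%.

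Adamtsl1, which encodes a matrix glycoprotein, rose from 5.14, 3.77 and 5.74 to 43.0, 57.0 and 42.7 CPM (edgeR adjusted p = 4.24e-06). Its coding tile was at 95.3% or more at Week 1 and 93.4% or more at Week 3. Tnc, the gene for tenascin C, rose 3.56-fold (edgeR adjusted p = 4.71e-06), and its coding tile averaged 70.8%. Erg, a transcription factor gene of articular cartilage, rose 2.44-fold (edgeR adjusted p = 4.73e-06), with an intronic tile at 78.5%, 78.9% and 64.4% at Week 1 and 75.9%, 68.0% and 80.6% at Week 3. Antxr2, an anthrax toxin receptor gene, rose 2.13-fold with an intermediate intronic tile at 21.9% (edgeR adjusted p = 6.06e-06).

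Among hosts that fell, Tsc22d1, a TGF-beta responsive gene, went from 468, 479 and 477 to 255, 269 and 242 CPM (log2 change -0.89 ± 0.06 SE, edgeR adjusted p = 3.93e-06). Its intronic tile had only 3 sites and averaged 66.3%. Ttn, the gene for the muscle protein titin, fell by 1.57 on the log2 scale (edgeR adjusted p = 1.49e-05), and its coding tiles were at 92.9% and 91.0%. Atrnl1 and Zfp697 also fell, by 0.88 and 0.98 (edgeR adjusted p = 2.87e-05 and 0.000532). Atg2b, an autophagy gene, fell by 0.40 (edgeR adjusted p = 0.00063). In none of the tiles of these 10 hosts was the methylation difference called, with limma adjusted p of 0.889 or more.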

How the data were processed

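ERRBS was deposited by the authors as 1 file per library that lists each CpG cytosine, strands separate, together with the read count there and the percent of reads with C or T (per the file headers). No site had under 10 reads. Per the submitters' processing notes, the genome was mm10 and the tools included Bismark, STAR, featureCounts and CASAVA 2.17. The removal of duplicate reads is not given in the sources used here. RNA-seq was deposited as raw counts per RefSeq transcript, and a gene's count was that of its transcript with the highest total.

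Of the shared sites on chromosomes 1 to 19, 720674 in number, all lay on mm10 CpGs. Sequences and 5′ ends came from RefSeq GRCm38.p6. Median member coverage ran from 17.8 to 68.0 reads per site, so single sites in the shallow libraries have wide counting error, and reads are not independent molecules.

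Set means were tested over libraries by exact permutation. Tiles were tested over all 71214 with limma 3.58.1 in R 4.3.3, with trend and robust settings, on the logit of the level with 1 percentage point added to the methylated and unmethylated percent. Genes were tested with edgeR 4.0.16 (TMM, filterByExpr, quasi-likelihood). Adjustment was by Benjamini-Hochberg with a threshold of 0.05. DESeq2 1.42.0 and an edgeR fit of pooled reads were alternatives. The main limma fit of tiles and the main edgeR fit of genes were tested on simulated data with known changes. The alternative fits were not. The tile fit recovered none of the simulated tiles in the first check, in which they were moved by 20 points. Moves of 10, 30 and 40 points were then added, of which most at 30 and those at 40 were called.

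The labels do not say if equal replicate numbers pair samples across weeks. In RNA, deviations from the week means correlated at 0.259, 0.376 and 0.194 for equal numbers 1, 2 and 3. For unequal numbers the correlations ran from -0.276 to 0.0606. The ERRBS samples showed no such pattern. Host counts and adjusted p-values in the main text came from the fit without pairs.

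Named tiles were the 5 with the smallest p, the 4 with the most sites and the 4 with the most CpGs per class, the 3 with the largest site spread, and up to 6 per gene list, of which the text describes a part. Named hosts were the 5 with the smallest adjusted p in each direction. The deep tiles, the tiles with the largest differences, the repeat groupings and the shared words were chosen after values had been seen. Members and lists were chosen with earlier results of these data known.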

Additional observations from a re-analysis of the deposited data

How the results depend on the processing

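Of the differences between weeks, those of all members, of methylated, intronic, other exonic and intergenic members and of mostly masked members kept their direction under every alternative run. With 1 library left out they ran from -0.337 to -0.0977 for all members, -0.436 to -0.116 for methylated, -0.523 to -0.173 for intronic, -1.04 to -0.135 for other exonic, -0.379 to -0.212 for intergenic and -0.576 to -0.446 for mostly masked members. Their sizes were less stable than their direction. With 40 or more CpGs other exonic members gave -0.00985 and intergenic members -0.0175 points, against -0.690 and -0.306 in the main setting. The differences of all, methylated and mostly masked members also shrank there, while intronic members gave -0.411 against -0.390. Other week differences reversed, all near 0 and none called. Unmethylated members gave 0.0710 at coverage 20 and 0.0516 with 40 or more CpGs, and -0.146 to 0.0780 with 1 library left out. Coding exons gave -0.00117 at coverage 20 and -0.188 to 0.374 with 1 library left out. With at least 5 sites, intermediate members gave 0.120, tiles inside genes 0.0569 and members under 50% masked 0.000298. Members under 50% masked gave 0.0440 with 40 or more CpGs, 0.0170 with curated 5′ ends alone, an alternative chosen after seeing the data, and -0.232 to 0.0888 with 1 library left out. Inside genes that range was -0.312 to 0.0383. The level above 5′ ends was 59.2 to 59.3 points with 1 library left out, where p cannot go below 0.0625 (exact sign-flip test of 5 libraries).

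In ERRBS, deviations from the week means correlated at 0.0254, -0.0202 and -0.0301 for equal replicate numbers. Values this small do not settle whether the samples were paired. A replicate block cannot change the members' mean difference of -0.200 points in this balanced design, so that value is no check. With the block, limma called 0 member tiles. With the RNA replicate number as a block, 225 hosts rose and 117 fell, and with 1 library left out 157 to 192 rose and 69 to 108 fell. Coverage of 17.8 to 68.0 reads and as few as 3 sites limit single tiles.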
